A study of Homo sapiens with 3 samples.

Results

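The heat shock proteins and chaperones form a set of protein-coding genes whose symbols begin with HSPA, HSPB, HSPD, HSPE, HSPH, HSP90, DNAJA, DNAJB, DNAJC or CCT followed by a subunit number, with HSPA5, HSPBP1 and HSPBAP1 left out. The rule took 84 of the 58735 genes listed in the count tables. These 84 entries carry 83 symbols, because HSPA14 is listed under 2 gene identifiers. By family they comprised 14 HSPA, 3 HSP90, 1 HSPH, 3 HSPD or HSPE, 9 HSPB, 4 DNAJA, 12 DNAJB, 29 DNAJC and 9 CCT entries.

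RNA was sequenced from DU145 cells, a prostate cancer cell line, as 1 library from control cells and 1 each from the lines labelled PD-L1 knockdown 1 and PD-L1 knockdown 2. Per the study's methods, the knockdown lines carried stably integrated lentiviral pLKO.1 vectors with PD-L1 shRNA, the control carried the empty pLKO.1 vector, and all were kept under puromycin. The methods name the sequenced knockdown cells PD-L1sh1/2 but print only 1 PD-L1 shRNA sequence. The control was therefore not replicated, and each knockdown library came from its own line, numbered as a separate shRNA. The labels give DMEM as the medium and the methods EMEM, the series text names BCPAP, a thyroid cancer line, and the count column of the control is headed RBM45.

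Triplets of values below are in the order control, knockdown 1 and knockdown 2, as labelled, and the libraries hold 14733088, 14738298 and 15786457 counts in total. CD274, which encodes PD-L1, had 204, 213 and 224 counts. In CPM (counts scaled to a common library total), CD274 stood at 1.04 times the control in the library labelled knockdown 1 (exact 95% interval for counting error 0.857 to 1.27) and at 1.025 times in the library labelled knockdown 2 (0.844 to 1.25 by the same method). The targeted transcript was not lower in either, and "knockdown" therefore stands only for a label from here on. The paper describes a check of its stable knockdown lines, DU145 among them, by western blot. That check measures PD-L1 protein and not RNA, and it is not part of these data. Epithelial markers (EPCAM, CDH1, KRT8, KRT18 and KRT19) summed to between 2179 and 2406 CPM. The prostate luminal markers KLK2, KLK3, TMPRSS2 and FOLH1 were at 0 counts in every library. The 4 thyroid, 4 leukocyte, 4 fibroblast and 3 endothelial markers summed to at most 9.63 CPM per list. No library was a copy of another: the chi-square statistic per gene over the members was 7.33 for control against knockdown 1, 19.8 for control against knockdown 2 and 14.7 between the knockdown libraries, and over all genes it was 5.68, 12.0 and 5.57, where counting error alone gives about 1. At a given fold change this statistic grows with counts, so it does not show whether members differed more than other genes.

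Chaperones bind unfolded or partly folded proteins and keep them from aggregating. The HSPA (HSP70) proteins bind and release clients in an ATP cycle that J-domain proteins, the DNAJA, DNAJB and DNAJC families, start by stimulating ATP hydrolysis, and that HSPH (HSP110) proteins reset by exchanging the nucleotide. HSP90 proteins act later, on clients such as kinases and steroid receptors, HSPD1 with HSPE1 encloses proteins in the mitochondrial matrix, the CCT ring folds actin and tubulin, and small heat shock proteins (HSPB) hold unfolding proteins without ATP. Many of these genes are switched on by the factor HSF1, which binds heat shock elements, inverted repeats of the triplet GAA.

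The stretches upstream of the RefSeq start (GRCh38.p14 windows of 250 bases before and 50 after the start) were read for matches to heat shock elements. RefSeq windows existed for 73 of the 83 symbols. The motif of 3 triplets, GAANNTTCNNGAA, or TTCNNGAANNTTC on the other strand, lay in 172 of all 35116 windows (0.490%) and in 7 of the 94 windows of the members (7.45%). Both strands were searched and overlapping matches counted once. The 7 genes were HSPA6, HSPA8, HSP90AA1, HSP90AB1, HSPD1, DNAJB6 and DNAJA1. The DNAJA1 match lies after the start and is not shown. A match describes these letters and not a bound site. The stretches below, 5′ to 3′ on the strand of the gene, have the motif in capitals.
HSPA6, 74 to 62 bases before the start, chr1:161524460-161524484, + strand: gaaaggTTCGCGAAAGTTCgcggcg
HSPA8, nearer match, 55 to 43 bases before, chr11:123062173-123062197, - strand: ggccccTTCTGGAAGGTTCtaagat
HSPA8, farther match, 230 to 218 bases before, chr11:123062348-123062372, - strand: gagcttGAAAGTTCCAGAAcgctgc
HSP90AA1, 88 to 76 bases before, chr14:102087114-102087138, - strand: gggttcTTCCGGAAGGTTCgggagg
HSP90AB1, farther match, 165 to 153 bases before, chr6:44247772-44247796, + strand: agcaggTTCTGGAAGATTCatgggc
HSP90AB1, nearer match, 112 to 100 bases before, chr6:44247825-44247849, + strand: agattgTTCTGGAAGCTTCtggatt
HSPD1, overlapping matches, 245 to 228 bases before, chr2:197500062-197500090, - strand: gcattTTCTGGAAAGTTCTGGAAccgagc
DNAJB6, 131 to 119 bases before, chr7:157336867-157336891, + strand: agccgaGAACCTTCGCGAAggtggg

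In GENCODE 29 the HSPA8 and HSP90AA1 stretches fall in exons of longer transcripts of the same genes, those of HSP90AB1 and DNAJB6 fall in introns of longer transcripts, and the HSPA6 stretch falls in an intron of the noncoding gene AL590385.2. The HSPD1 stretch overlaps exons of both HSPD1 and HSPE1, which lie head to head on chromosome 2. The inducible copies HSPA1A and HSPA1B held no match to the 3-triplet motif, and each held a match to the shorter GAANNTTC, which occurs in 6.77% of all windows. These stretches are shown because the 2 genes are close copies: over 249 aligned bases before the start, 235 were identical (94.4%). Both lie outside annotated genes, and the HSPA1A stretch also lies upstream of HSPA1L, which runs the other way.
HSPA1A, 106 to 99 bases before the start, chr6:31815431-31815450, + strand: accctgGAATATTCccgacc
HSPA1B, 105 to 98 bases before, chr6:31827627-31827646, + strand: cccctgGAATATTCccgacc

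The same motif accompanied very different levels. Levels are given as RPKM, the CPM divided by the listed exon length in kilobases. Over the 7 genes with the 3-triplet motif the mean level ran from 0.282 RPKM (HSPA6) to 877 RPKM (HSP90AB1), with a median of 99.8. The other 68 members with 10 or more counts summed over the libraries ran from 0.0559 to 177 RPKM, with a median of 7.13. These 68 include members without a RefSeq window, which could not be searched. No heat treatment is part of the design, so these are levels in unstressed culture as far as the labels say.

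Together the members took 1.39%, 1.41% and 1.32% of all counts. In bulk RNA, fewer cells with a transcript and less of it per cell cannot be told apart. The mean level reached 100 RPKM or more in 7 entries and 10 or more in 34, and it was below 1 in 23, of which 7 had no count in any library. HSP90 genes made up 44.3%, 43.9% and 43.1% of the members' summed RPKM in the control, the library labelled knockdown 1 and that labelled knockdown 2. The CCT genes followed with 22.7%, 23.4% and 23.8%, and the HSPA genes with 14.3%, 14% and 13.7%. The small heat shock proteins contributed 1.86%, 1.99% and 2.41%. DNAJC genes held 6.21%, 6.02% and 6.38%, and DNAJB, HSPD with HSPE, and DNAJA lay between 3.14% and 3.87%. The order of the families was the same in the 3 libraries. With the longest transcript as the length in place of all exons, 9 of the 10 highest members remained among the 10 highest.

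**Figure D1:**
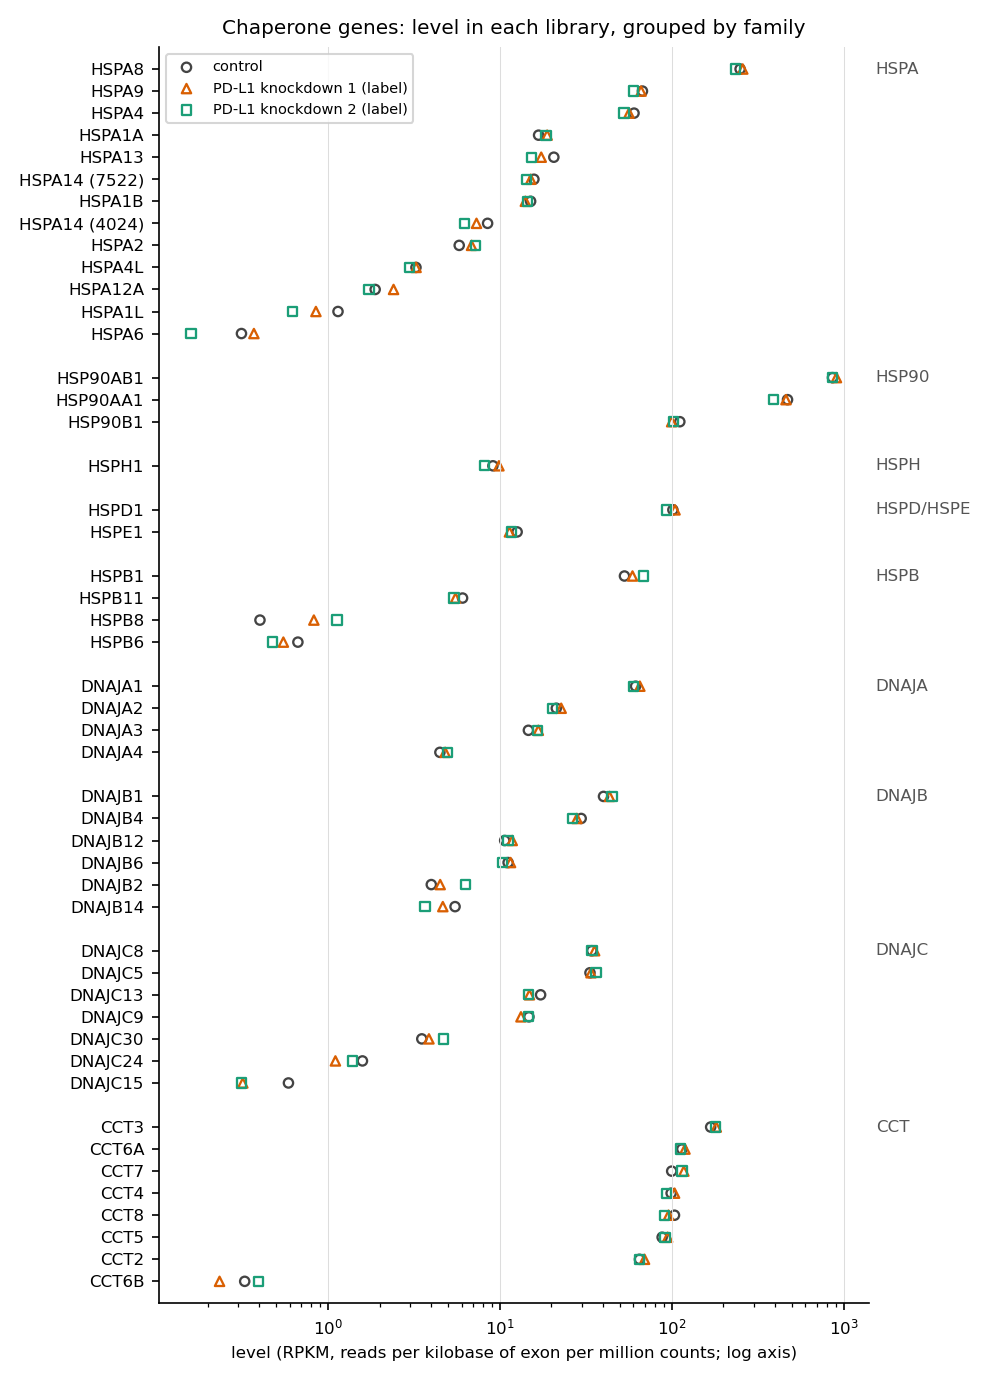
Level of the named chaperone genes with counts in every library, in RPKM on a log axis, 1 row per gene and grouped by family; circles are the control, triangles the library labelled PD-L1 knockdown 1 and squares that labelled PD-L1 knockdown 2 (1 library each, HSPA14 shown with the end of its identifier). HSP90AB1 is highest, at 862, 909 and 860 RPKM, and for most genes the 3 symbols lie close together against the range between genes.

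The comparison asks which chaperone transcripts differ between the libraries labelled PD-L1 knockdown and the control. It was fitted with edgeR's quasi-likelihood test over 19849 genes with 10 or more counts in sum, and 75 of the 84 members entered. Of the 9 that did not, 7 had no count in any library (DNAJB8, DNAJC5B, HSPB3, CCT8L2 and the read-through genes HSPE1-MOB4, DNAJC25-GNG10 and HSPB2-C11orf52), and HSPB2 and DNAJC5G had 1 count each. No member passed an adjusted p of 0.05 (Benjamini-Hochberg over all genes, edgeR) in either direction, where 0.247% of all genes passed as higher and 0.106% as lower. The lowest adjusted p among the members was 0.198, for DNAJB14. At an unadjusted p under 0.05, 3 members were higher in the knockdown libraries (HSPB1, HSPB8 and DNAJB2), or 4.00% of those tested against 6.82% of all genes. Another 4 were lower (DNAJB14, HSPA13, DNAJC15 and 1 of the HSPA14 entries), or 5.33% against 4.92% of all genes. Adding a log2 fold change beyond 1 left HSPB8 alone among the higher members and none among the lower, against 1.54% and 0.942% of all genes. DESeq2's Wald test gave 0 members at either p. Over all genes it gave 3 higher and 3 lower at the adjusted p, and 342 higher and 113 lower at the unadjusted one. The control has no replicate, so every p rests on the spread between the knockdown libraries, which are numbered as separate shRNAs. This edgeR fit pooled that spread over genes, so a gene's own difference between the knockdown libraries had no separate weight.

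Both knockdown libraries lay above the control in CPM for 24 of the 75 members (32.0%, against 35.7% of all genes tested) and both below it for 26 (34.7%, against 38.6%). The median log2 fold change of the members was -0.006, and that of all genes 0.002. By library the medians of the members' log2 ratios to the control were 0.05 for the library labelled knockdown 1 and -0.07 for that labelled knockdown 2. Among the 61 members with a mean of 100 counts or more, log2 fold changes ran from -0.39 to 0.44, and the approximate 95% interval (1.96 standard errors to each side) lay within 1 log2 unit of 0 for all 61 and within 0.5 for 45. The standard deviation of log2 fold changes was 0.17 over these 61 and 0.23 over the 10861 genes with as many counts.

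**Figure D2:**
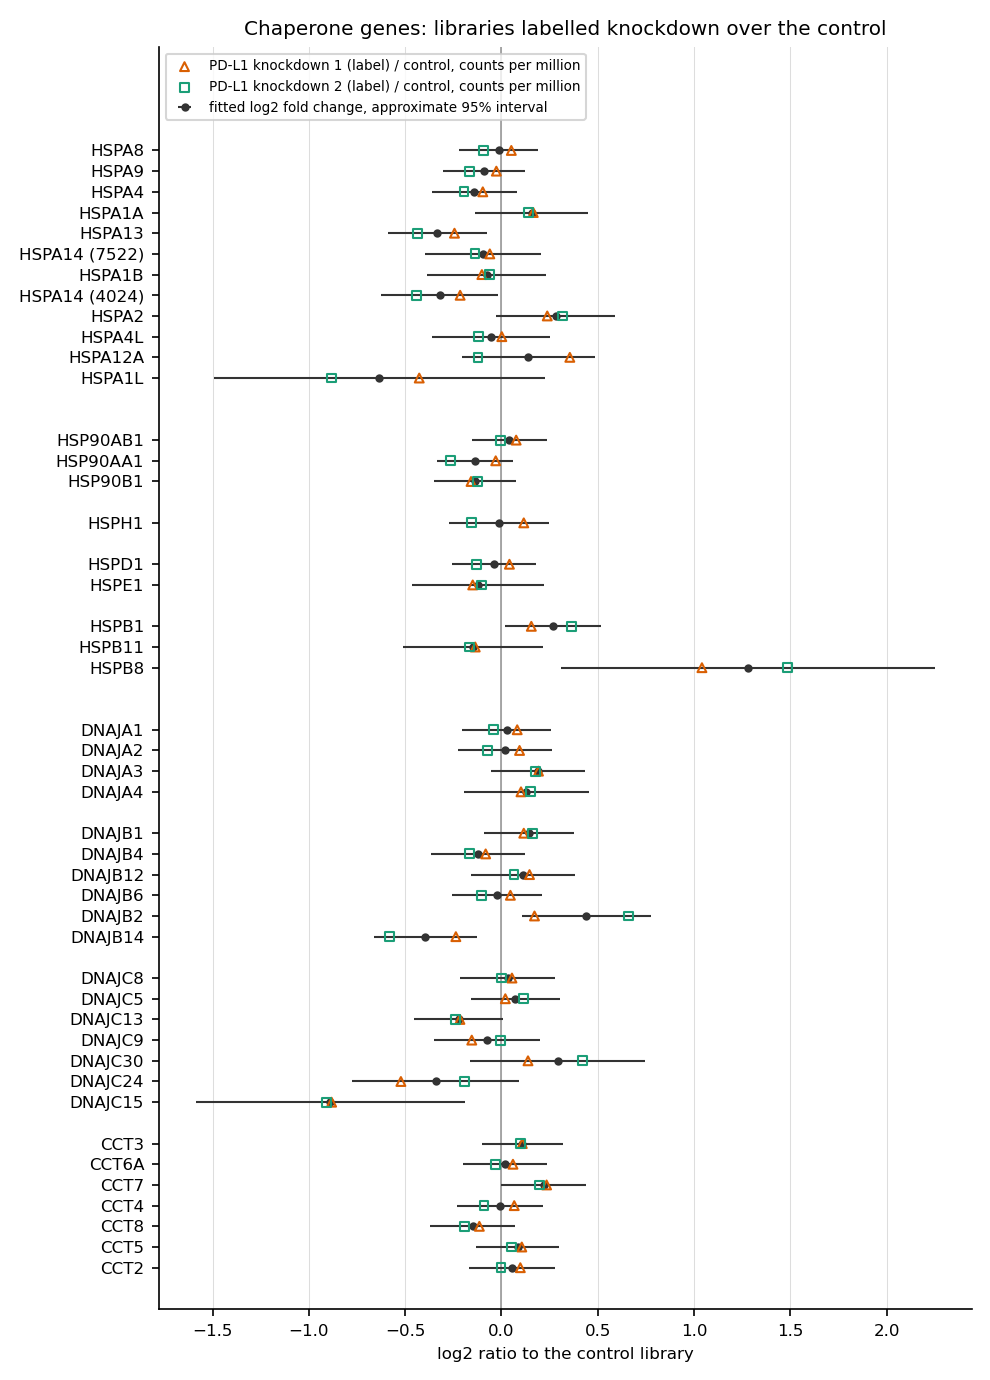
Log2 ratio to the control for the named chaperone genes with a mean of 30 counts or more; black points are the fitted log2 fold change of the libraries labelled PD-L1 knockdown over the control with an approximate 95% interval, triangles and squares the ratio of each knockdown library to the control in CPM. Most intervals include 0, and HSPB8 and DNAJC15, the points farthest from 0, have wide intervals and few counts.

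Among the HSP70 genes, HSPA8, the constitutive cytosolic HSP70, was highest, at 250 RPKM in the control, 259 in the library labelled knockdown 1 and 235 in that labelled knockdown 2. Its counts were 17872, 18527 and 17973, and when scaled to library totals the control lay between the knockdown libraries. The fitted log2 fold change was -0.01 (SE 0.10). HSPA9, the mitochondrial HSP70, stood at 67.6, 66.4 and 60.3 RPKM in the same order. HSPA4, a nucleotide exchange factor of the HSP110 kind, stood at 60.4, 56.5 and 52.8 RPKM. For both genes the knockdown libraries lay below the control, by a log2 fold change of -0.09 (SE 0.11) and of -0.14 (SE 0.11), and neither change exceeded its interval. HSPA4L, a related exchange factor, stood at 3.26, 3.26 and 2.998 RPKM.

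The heat-inducible HSP70 genes were counted at a far lower level per length. HSPA1A had 616, 691 and 728 counts, or 16.8, 18.9 and 18.6 RPKM, and HSPA1B had 562, 524 and 577 counts, or 15.1, 14.1 and 14.5 RPKM. The knockdown libraries lay above the control for HSPA1A and below it for HSPA1B when scaled to library totals. Of the 31-base words in their transcripts, 73.6% for HSPA1A and 74.4% for HSPA1B occur in another gene as well, so the split of reads between the copies is uncertain. The treatment of multiply mapped reads is not given, and leaving them out would lower both levels and their sum. Their summed counts were 1178, 1215 and 1305, which in CPM is 1.03 times the control in each knockdown library (exact 95% counting intervals 0.951 to 1.12 and 0.955 to 1.12). As counted, HSPA8 exceeded HSPA1A by 14.9, 13.7 and 12.6 times per length in the 3 libraries. HSPA8 shares 21.5% of its words with other genes, fewer than HSPA1A, so this ratio depends on how shared reads were counted. HSPA6, inducible by strong heat and sharing 56.7% of its words with other genes, HSPA7 foremost, had 11, 13 and 6 counts. HSPA1L, the divergent neighbour of HSPA1A known from testis, had 43, 32 and 25 counts, with a log2 fold change of -0.63 (SE 0.44, unadjusted p = 0.15 by edgeR).

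HSPA13, an HSP70-like ATPase of the endoplasmic reticulum, had 1276, 1078 and 1011 counts. Both knockdown libraries were below the control, at 0.845 times (0.778 to 0.917) and 0.739 times (0.680 to 0.804) in CPM with exact 95% counting intervals. The fitted log2 fold change was -0.33 (SE 0.13, edgeR unadjusted p = 0.011, adjusted p = 0.27). HSPA14, an HSP70-like protein of the ribosome-associated complex, is listed under ENSG00000187522 and ENSG00000284024, whose exons overlap in part. The first had 616, 591 and 600 counts and the second 617, 532 and 487. Only the second reached an unadjusted p under 0.05, with a log2 fold change of -0.32 (SE 0.16, edgeR unadjusted p = 0.040, adjusted p = 0.39), and reads of the shared exons cannot be assigned between the entries from these tables. HSPA2, best known from the testis, had 495, 584 and 661 counts. It was higher in both knockdown libraries, with a log2 fold change of 0.28 (SE 0.16, edgeR unadjusted p = 0.073). HSPA12A, an atypical HSP70, had 329, 421 and 324 counts, so the knockdown libraries lay on either side of the control in CPM.

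HSP90AB1, the constitutive cytosolic HSP90, was the most abundant member per length, at 862, 909 and 860 RPKM in the control, the library labelled knockdown 1 and that labelled knockdown 2. HSP90AA1, the inducible cytosolic form, stood at 472, 463 and 393 RPKM. It was lowest in the library labelled knockdown 2, at 0.832 times the control (exact 95% counting interval 0.820 to 0.845), while the library labelled knockdown 1 was at 0.9796 times (0.965 to 0.994). The ratio of HSP90AA1 to HSP90AB1 per length was 0.548, 0.509 and 0.457. The fitted log2 fold changes were -0.14 (SE 0.10, edgeR adjusted p = 0.61) for HSP90AA1 and 0.04 (SE 0.10, edgeR adjusted p = 0.92) for HSP90AB1. Both transcripts share words with pseudogene copies, 29% of HSP90AA1 and 35.7% of HSP90AB1. HSP90B1, the endoplasmic reticulum HSP90 also called GRP94, stood at 112, 100.03 and 102 RPKM, below the control in both knockdown libraries, with a log2 fold change of -0.14 (SE 0.11). HSPH1, the HSP110 exchange factor, had 1129, 1224 and 1085 counts, with the control between the knockdown libraries.

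In the mitochondrial chaperonin, HSPD1 encodes the barrel and HSPE1 its lid. HSPD1 had 6360, 6548 and 6230 counts, or 102, 105 and 93.0 RPKM, and HSPE1 had 368, 332 and 367 counts, or 12.6, 11.4 and 11.8 RPKM. The control lay between the knockdown libraries for HSPD1 and above both for HSPE1. Per length HSPD1 exceeded HSPE1 by 8.05, 9.19 and 7.91 times, although the genes share the stretch between their starts. Shared words reached 31.3% for HSPD1 and 27.2% for HSPE1, and 23.9% of the HSPE1 exon bases overlap another gene, so this ratio depends on how shared reads were counted. The fitted log2 fold changes were -0.04 (SE 0.11) and -0.12 (SE 0.17).

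HSPB1, the small heat shock protein HSP27, was the main HSPB transcript, at 53.2 RPKM in the control, 59.2 in the library labelled knockdown 1 and 68.5 in that labelled knockdown 2. Both knockdown libraries were above the control, at 1.11 times (1.03 to 1.20) and 1.29 times (1.20 to 1.39) with exact 95% counting intervals. The fitted log2 fold change was 0.27 (SE 0.13, edgeR unadjusted p = 0.036, adjusted p = 0.38). HSPB8, which works with BAG3 in selective autophagy of misfolded proteins, had 17, 35 and 51 counts. Its ratios to the control were 2.06 (1.12 to 3.92) and 2.80 (1.59 to 5.17), and the fitted log2 fold change was 1.28 (SE 0.50, edgeR unadjusted p = 0.0097, adjusted p = 0.26). BAG3 itself, at 2145, 2039 and 2468 counts, gave a log2 fold change of 0.02 (SE 0.12). HSPB11, now known as the intraflagellar transport protein IFT25, had 290, 264 and 277 counts. HSPB6 had 17, 14 and 13 counts, and HSPB7 and HSPB9 had at most 17 counts in any library.

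DNAJA1, the main cytosolic class A J-protein, stood at 61.7, 65.3 and 60.1 RPKM in the control, the library labelled knockdown 1 and that labelled knockdown 2, with the control between the knockdown libraries. DNAJA2, its cytosolic relative, stood at 21.3, 22.8 and 20.3 RPKM and showed the same order. DNAJA3, the mitochondrial J-protein, had 1530, 1749 and 1855 counts. It was above the control in both knockdown libraries, with a log2 fold change of 0.19 (SE 0.12, edgeR unadjusted p = 0.13). DNAJA4 had 436, 468 and 518 counts and was also above the control in both.

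DNAJB1, the heat-inducible HSP40, was the highest DNAJB gene, at 40.2, 43.5 and 45.0 RPKM. DNAJB4 followed with 29.8, 28.1 and 26.5 RPKM, DNAJB12, anchored in the endoplasmic reticulum membrane, with 10.7, 11.8 and 11.2, and DNAJB6, a suppressor of aggregation, with 11.2, 11.6 and 10.4. None of these 4 reached an unadjusted p of 0.05. DNAJB2, a J-protein with ubiquitin-binding motifs, had 347, 391 and 587 counts. The difference was uneven between the knockdown libraries, at 1.13 times (0.972 to 1.30) and 1.58 times (1.38 to 1.81) the control. Its fitted log2 fold change was 0.44 (SE 0.17, edgeR unadjusted p = 0.0097, adjusted p = 0.26), the highest among members with a mean of 100 counts or more. DNAJB14, an endoplasmic reticulum membrane J-protein, had 1060, 900 and 760 counts, below the control in both knockdown libraries at 0.849 times (0.776 to 0.928) and 0.669 times (0.609 to 0.735). Its log2 fold change of -0.39 (SE 0.14, edgeR unadjusted p = 0.0038, adjusted p = 0.20) was the lowest of those members.

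Of the DNAJC genes, DNAJC8, a splicing-associated J-protein, and DNAJC5, the cysteine string protein of secretory vesicles, were highest, at 34.3, 35.7 and 34.4 and at 33.5, 34.0 and 36.3 RPKM. DNAJC13, an endosomal protein, had 2448, 2109 and 2226 counts, and both knockdown libraries were below the control (log2 fold change -0.22, SE 0.12, edgeR unadjusted p = 0.062). DNAJC9, a histone chaperone, had 862, 775 and 921 counts. DNAJC15, a J-protein of the mitochondrial import motor, had 70, 38 and 40 counts, and both knockdown libraries were low. Its ratios were close, 0.543 (0.356 to 0.817) and 0.533 (0.352 to 0.798), with a log2 fold change of -0.89 (SE 0.36, edgeR unadjusted p = 0.013, adjusted p = 0.28). At the margins of the family, DNAJC30, a mitochondrial protein, had 129, 142 and 185 counts (log2 fold change 0.29, SE 0.23) and DNAJC24, a protein of diphthamide synthesis, had 178, 124 and 167 (-0.34, SE 0.22). Of the other 22 DNAJC entries none of those tested reached an unadjusted p of 0.05. The median log2 fold change over the 26 tested DNAJC genes was 0.01.

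The CCT ring is built from 8 subunits, of which TCP1, the first, has a symbol outside the naming rule. CCT3 was highest, at 169, 182 and 181 RPKM in the control, the library labelled knockdown 1 and that labelled knockdown 2, and TCP1 lowest, at 43.9, 45.8 and 44.2. The other six ring genes lay between 64.9 and 120 RPKM in every library. The highest ring gene exceeded the lowest by 3.84, 3.97 and 4.09 times per exon length, and by 3.64, 3.77 and 3.87 times per longest transcript. CCT7 had 5295, 6232 and 6503 counts. It was above the control in both knockdown libraries, at 1.18 times (1.13 to 1.22) and 1.15 times (1.105 to 1.19), with a log2 fold change of 0.22 (SE 0.11, edgeR unadjusted p = 0.050, adjusted p = 0.43). CCT8 had 5114, 4725 and 4798 counts and was below the control in both, at 0.924 times (0.888 to 0.961) and 0.876 times (0.842 to 0.911), with a log2 fold change of -0.15 (SE 0.11, edgeR adjusted p = 0.63). Neither subunit passed the test across genes, and with the length and GC trends described below removed their log2 fold changes were 0.19 and -0.07. CCT3 and CCT5 were above the control in both knockdown libraries (log2 fold changes 0.11 and 0.08, each SE 0.11). CCT2, CCT4, CCT6A and TCP1 had log2 fold changes between -0.006 and 0.05. CCT6B, the testis paralog of CCT6A, had 21, 15 and 27 counts, so CCT6A exceeded it by 349, 509 and 285 times per length. In CCT5, 30.1% of the exon bases overlap another gene, and its reads cannot be fully separated from it without strand.

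**Figure D3:**
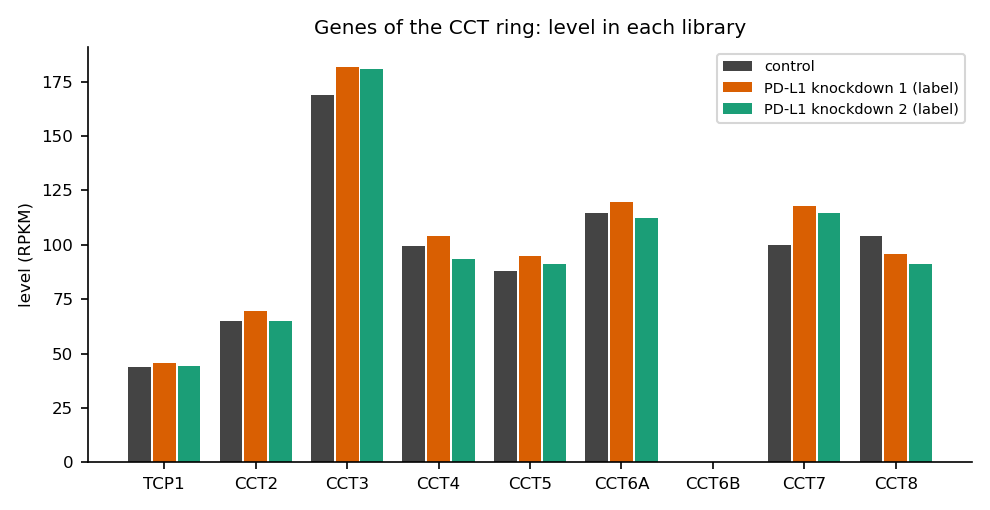
Level of the CCT ring genes and of the paralog CCT6B in RPKM (vertical axis from 0), with 1 bar per library in the order control, PD-L1 knockdown 1 and PD-L1 knockdown 2 as labelled. CCT3 is highest in each library, TCP1 is lowest of the ring genes, and CCT6B, below 1 RPKM, does not rise visibly from the axis.

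Among well-counted genes the fold changes followed the GC content of the transcripts. Over the 61 members with a mean of 100 counts or more, log2 fold change and GC content had a Pearson correlation of 0.74 and a Spearman correlation of 0.74 across genes, and over 10859 genes of that depth they had 0.64 and 0.68. With low counts included the values were smaller, 0.12 and 0.44 over the 75 members tested and 0.19 and 0.38 over all genes tested. All points share the same 3 libraries, so this describes those libraries. In all genes the mean log2 fold change ran from -0.22 in the lowest of 20 GC classes, at 36.9% GC, to 0.27 in the highest, at 65.7%. Of the members called at an unadjusted p under 0.05, DNAJB14 had 34.9% GC and HSPA13 36.6%, while DNAJB2 had 59.4% and HSPB1 63.6%. The length and GC trends removed for HSPB1 came together to 0.16 on the log2 scale in the library labelled knockdown 1 and 0.31 in that labelled knockdown 2.

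With the trends in length and GC content removed library by library, 3 members had an unadjusted p under 0.05, all higher: HSPB8, CCT7 and HSPA2. Of all 19849 genes tested, 874 were higher and 513 lower at that p by edgeR. Among the members, only HSPB8 was shared with the 7 of the uncorrected fit. Its log2 fold change was 1.23 after removal (edgeR unadjusted p = 0.017). HSPB1 moved from 0.27 to 0.03, DNAJB14 from -0.39 to -0.10, HSPA13 from -0.33 to -0.12 and DNAJB2 from 0.44 to 0.31. DNAJC15 moved from -0.89 to -0.69 and HSPA14 (ENSG00000284024) from -0.32 to -0.25, with edgeR unadjusted p = 0.054 and 0.081. CCT7 stood at 0.19 and HSPA2 at 0.30, with edgeR unadjusted p = 0.032 and 0.033. No member passed the adjusted threshold, with a lowest adjusted p of 0.64. The median log2 fold change of the members turned from -0.006 to 0.04, and the Spearman correlation with GC content over the 61 members fell to 0.10. The part of GC content in these differences was not tested further.

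**Figure D4:**
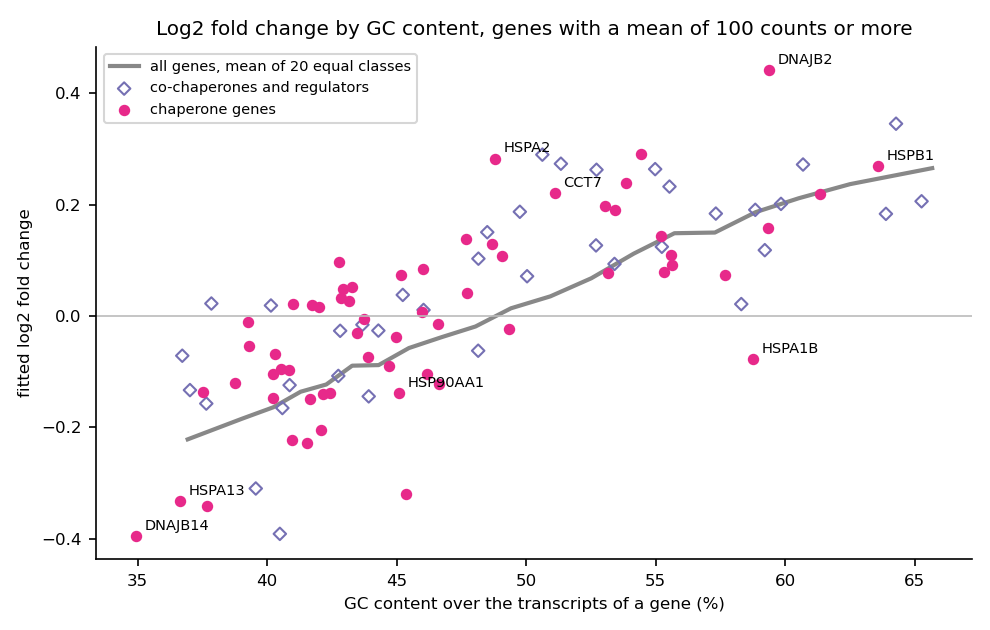
Fitted log2 fold change of the libraries labelled PD-L1 knockdown over the control (vertical axis) by GC content of a gene's transcripts in percent (horizontal axis), for genes with a mean of 100 counts or more; filled circles are chaperone genes, diamonds the co-chaperones and regulators, and the line joins the means of all genes in 20 classes of equal size. Both sets spread around the rising line, and DNAJB14 and HSPA13 sit at its low end, HSPB1 at its high end.

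Of 41 co-chaperones, other chaperones and regulators listed for comparison, 40 were tested, and CRYAB, the small heat shock protein alpha-B crystallin, had 0 counts in all libraries. None passed an adjusted p of 0.05 by edgeR. At an unadjusted p under 0.05, 6 were higher (15%, against 6.82% of all genes) and 2 lower (5.00%, against 4.92%), and the median log2 fold change was 0.10. DESeq2's Wald test gave 0 at either p. With the length and GC trends removed, edgeR gave 4 higher and 0 lower at the unadjusted p. Over all 19849 genes that fit gave 874 and 513. Among the higher ones were the HSP90 co-chaperones CDC37, which brings in kinases, with 3159, 3584 and 4312 counts (log2 fold change 0.27, SE 0.12), and FKBP4, with 1284, 1524 and 1659 (0.26, SE 0.13). BAG1, an HSP70 nucleotide exchange factor, had 1260, 1432 and 1757 counts (0.29, SE 0.13), and STUB1, the ubiquitin ligase CHIP, had 528, 584 and 807 (0.34, SE 0.15). The prefoldin subunits PFDN2 and PFDN4, which hand actin and tubulin to CCT, lay apart, with log2 fold changes of 0.27 (SE 0.14) and -0.39 (SE 0.19). HSF4, a lens heat shock factor, had 29, 52 and 55 counts. After removal of the trends, CDC37 stood at 0.06 and STUB1 at 0.09, and BAG1 and PFDN2 at 0.33 and 0.31.

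HSF1, the main regulator of heat shock genes, was counted 1402, 1516 and 1778 times, with a log2 fold change of 0.18 (SE 0.13) that turned to -0.05 without the GC and length trends. The 7 members with the 3-triplet element described above had log2 fold changes from -0.25 (HSPA6) to 0.04 (HSP90AB1), with a median of -0.02. HSPA5, the endoplasmic reticulum HSP70 BiP, had 9776, 9552 and 10818 counts, for which the fit gave 0.01 (log2 fold change, SE 0.11).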

How the data were processed

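Per the labels and the study's methods, poly(A) RNA of DU145 cells was sequenced, and the authors deposited gene counts and FPKM values for each library. The submitters' processing notes name Bowtie2 2.0.6, TopHat2 2.0.9, Cufflinks 2.1.1 and Cuffdiff 2.1.1. The genome build, strandedness and treatment of multiply mapped reads are not given in the sources used here. In position and strand 58724 of the 58735 genes match GENCODE 29 (GRCh38). The deposited FPKM values equal the counts divided by the listed gene length and 1 constant per library (within 0.1%), so only counts were tested, and RPKM was computed from them.

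Members and lists were chosen with earlier results of these data known. Counts were fitted with edgeR 4.0.16 in R 4.3.3 (TMM scaling, quasi-likelihood, genes with 10 or more counts in sum, adjusted over all genes). There was 1 residual degree of freedom, and the spread was pooled over genes. The pooled value weighed as infinite degrees of freedom in the main fit and as 33.14 with the trends removed. DESeq2 1.42.0 served as an alternative, beside other scalings and count minimums, and the correction for listed gene length and GC content used 20 classes of each. Ranking by the longest transcript and naming the calls shared with the corrected fit were chosen after seeing the data. Scripts were tested on simulated data. Exact intervals for ratios are conditional binomial and, without molecular identifiers, cover counting error only. A count of 0 allows up to 3 counts, which is 0.204, 0.204 and 0.190 CPM in the 3 libraries. The knockdown lines are numbered as separate shRNAs and each was sequenced once, so p-values rest only on the spread between those libraries, pooled over genes. Named were all HSPA, HSP90, HSPH, HSPD, HSPE and CCT genes with a mean of 100 counts, the 4 highest by RPKM of each other family, members with an unadjusted p under 0.05, the 2 highest and 2 lowest by fold change among members with a mean of 100 counts, close copies and read-through genes, and listed partners with such a p plus TCP1, HSF1 and HSPA5. BAG3, CRYAB and the remaining low-count or zero-count members named were chosen after their values were seen. Some listed genes are not reported here.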

Additional observations from a re-analysis of the deposited data

How the results depend on the processing

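The count of members at an adjusted p under 0.05 was 0 in both directions by edgeR under every scaling, count minimum and trend correction tried, and by DESeq2. At an unadjusted p under 0.05 the edgeR counts of 3 higher and 4 lower members became 0 and 0 under DESeq2's Wald test. With length and GC trends removed, 3 were higher and 0 lower, and 1 gene, HSPB8, was shared with the uncorrected calls. Over all genes, the 49 higher and 21 lower at the adjusted threshold became 3 and 3 by DESeq2 and 7 and 4 without the trends, and the 1353 and 976 at the unadjusted one became 342 and 113, and 874 and 513. Leaving out each knockdown library gave no test, because no residual degree of freedom remains, and the members' median log2 fold change then ran from -0.070 to 0.058. Trend removal turned the sign of small log2 fold changes: to 0.039 for HSPA8, 0.035 for HSPA9, 0.052 for HSPD1, 0.030 for CCT4, 0.051 for DNAJB6, 0.0006 for DNAJC13, 0.18 for HSPH1, 0.018 for DNAJC9, 0.034 for HSPA14 (ENSG00000187522), 0.17 for HSPA4L and 0.074 for CCT6B, and to -0.074 for DNAJC5 and -0.013 for HSPA1A. None of these had an unadjusted p under 0.05, and the cause was not tested. With 1 knockdown library left out the value crossed 0 for HSPA8 (-0.087 to 0.058), CCT6A (-0.026 to 0.067), HSPD1 (-0.12 to 0.048), CCT4 (-0.086 to 0.073), DNAJA1 (-0.035 to 0.089), DNAJB6 (-0.099 to 0.053), DNAJA2 (-0.069 to 0.10), HSPH1 (-0.15 to 0.12), DNAJC9 (-0.15 to 0.0003), HSPA4L (-0.12 to 0.0089), HSPA12A (-0.12 to 0.36), CCT6B (-0.48 to 0.27) and HSPA6 (-0.95 to 0.24). No paired analysis was possible because the control has 1 library. Members with few counts, such as HSPB8 and DNAJC15, are limited by depth, and those with many by the unreplicated control.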

Other observations

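The knockdown libraries also differed from each other among the named chaperone genes, and no replicate of either exists to test this. Of the 61 members with a mean of 100 counts or more, 24 (39.3%) were lower in CPM in the library labelled knockdown 2 than in that labelled knockdown 1 and 7 (11.5%) higher, by an exact 95% interval that covers counting error only. Of the 10861 genes with as many counts 18.6% were lower and 19.1% higher by the same interval, which narrows with counts, and the median gene had 907 counts among the members and 625 among all. HSP90AA1 stood at 0.850 times (0.837 to 0.863), HSPH1 at 0.828 times (0.762 to 0.899) and HSPA12A at 0.718 times (0.620 to 0.833). DNAJB2 stood at 1.40 times (1.23 to 1.60) and HSPB1 at 1.16 times (1.08 to 1.24). The library labelled knockdown 2 also held fewer mitochondrially encoded counts, 5.17% against 5.68% and 6.30% in the library labelled knockdown 1 and the control. The ratios here are not corrected for length or GC content. Median GC content was 45% in the 61 members and 48.7% in all genes of that depth. In knockdown 1 and 2 the trends were -0.155 and -0.239 log2 units for HSPH1, and 0.157 and 0.306 for HSPB1. The part of mitochondrial counts and of these trends in the differences was not tested.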
